A study of Mus musculus with 9 samples.

Results

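The genes described here encode the collagens, the laminin chains, the integrin chains and 9 further matrix glycoproteins of mouse epiblast stem cells. They were taken by gene symbol from the array's probe annotation: every symbol of the form Col, Lama to Lamc, Itga or Itgb followed by a chain number or letter, together with Fn1, Sparc, Bgn, Nid1, Nid2, Hspg2, Fbn1, Fbln1 and Vtn. This matched 203 of 45281 probes and 92 of 30869 distinct symbols. A gene was tested where at least 3 of the 9 arrays detected a probe for it (detection p-value under 0.05), which held for 51 of the 92, among 13205 genes tested in all. Where several probes of a gene passed, as for 18 of the 51, the one with the highest mean signal stands for the gene. The integrin pattern also caught genes that are not integrin chains: Itgb1bp1, Itgb3bp and Itgb4bp were tested, and the current name of the last, Eif6, is that of a ribosome assembly factor.

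The extracellular matrix is either a sheet or a looser mesh. Basement membranes are thin sheets under epithelia, built from a laminin network and a type IV collagen network that nidogens and the proteoglycan perlecan tie together. Interstitial matrix is made of fibril-forming collagens, fibronectin and smaller glycoproteins, and is laid down mostly by mesenchymal cells. Integrins are αβ receptors in the plasma membrane that bind these proteins and connect them to the actin or keratin cytoskeleton. In the embryo the epiblast rests on a basement membrane, which is broken down at the primitive streak where cells leave the epithelium to form mesoderm and endoderm, and the parietal endoderm secretes a thick membrane rich in type IV collagen and laminin.

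All samples were male epiblast stem cells of a 129 background carrying a dsRed2 reporter. Their medium held activin A at 20 ng/ml together with bFGF at 10 ng/ml. The 3 groups were cells given 3 µM CHIRON for 48 h, cells sorted as dsRed2 positive, and cells sorted as dsRed2 negative, each with 3 biological replicates on an Illumina bead array of 1 colour. The labels call the agent CHIRON or CHI, and CHIRON commonly stands for CHIR99021, a compound that blocks GSK3 and thereby switches on Wnt/β-catenin signalling. Whether treated cells went through a sort is not clear from the labels, so treatment and sorting cannot be told apart in any comparison of treated with sorted cells. The promoter or other element behind dsRed2 is not named. The treated arrays are shared by both comparisons with sorted cells.

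Levels below are log2 of the background-corrected, quantile-normalized signal, differences are log2 differences with their standard error from limma, and adjusted p-values come from limma with Benjamini-Hochberg adjustment over the 13205 genes. "Called" means an adjusted p below 0.05, and an exact test of 3 arrays against 3 cannot go below p = 0.1. Levels of different genes come from different probes and are not compared. The lowest level detected on an array lay between 4.61 and 4.76, so values near 4.7 are at background. Per array the median signal was 95.1 to 109 and the share of probes detected 36.7% to 41.1%. The epiblast markers Pou5f1, Nanog, Sox2, Fgf5, Otx2 and Dnmt3b were detected on every array. Treated replicate 3 stood apart from treated replicates 1 and 2. The SD of the log2 difference over genes was 0.434 and 0.445 between replicate 3 and each of the others, against 0.192 between replicates 1 and 2. Between replicates it was 0.293 to 0.365 in positive cells and 0.309 to 0.372 in negative cells. Treated replicates 1 and 2 were thus also closer to each other than any 2 sorted replicates. Some differences are therefore also given without treated replicate 3. The scale mattered as well: in the same fit on the authors' deposited normalized values 29 of 53 called differences were over 1.5 times smaller, and those against negative cells are given beside the results.

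After 48 h of CHIRON most of the collagens called rose, and every integrin chain called fell. Of the 23 collagen genes tested 12 rose and 1 fell against dsRed2 negative cells, and the same numbers did so against dsRed2 positive cells. The 12 include Col6a2, Col6a3, Col22a1 and Col23a1, which passed the detection limit only through the treated arrays. Of the 10 integrin chains tested none rose, while 4 fell against negative cells and 3 against positive cells. The 4 include Itga2b, which passed the limit only through the sorted arrays. Of 7 laminin chains 2 rose and 3 fell in each comparison, and of 8 matrix glycoproteins 2 rose and 2 fell. No test compared the families. Without treated replicate 3, 11 collagens rose and 3 fell against negative cells and 6 integrin chains fell. The share of all genes called in that fit is not reported here. In all, limma called 17 of the 51 genes higher and 10 lower against negative cells, or 52.9%, where 20.1% of all genes tested were called higher and 19.9% lower, 40.0% together. At least 2-fold differences were called for 13 genes that rose and 6 that fell, against 6.16% and 6.19% of all genes. Against positive cells 17 rose (20.6% of all genes) and 9 fell (20.5%, or 41.1% of all genes in either direction), with 14 rises (6.48%) and 3 falls (6.37%) of at least 2-fold. The treated arrays lay wholly above the negative arrays for 20 genes and wholly below for 10, where 25.7% and 25.6% of all genes did, 51.3% together. Against the positive arrays these numbers were 19 and 10, where 26.5% and 26.7% of all genes did, 53.2% together. With each array centred on its median 18 genes rose and 8 fell against negative cells and 18 rose and 6 fell against positive cells, relative to a median of all genes of 0.14 and 0.12. Of the calls over all genes 68.8% and 65.8% were then higher, and the share of all genes called with this centring is not reported here. The median difference over the 51 genes was 0.22 against negative cells, where that of all genes was −0.01, and 0.27 against positive cells, where that of all genes was −0.02.

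Some of these genes passed the detection limit only through the group in which they were higher, so their difference is in part set by the limit. Col4a5, Col6a3 and Col23a1 were detected on no sorted array, and Lama3 and Itga2b on no treated array. Among the other 46 genes 15 rose and 9 fell in each comparison. The 15 still hold Col6a2 and Col22a1, each detected on 1 negative array and no positive array, which also passed the limit only through the treated arrays. The remaining 41 of the 92 symbols were not tested, and 23 of these, Col1a2, Col3a1, Col5a2 and Itgb2 among them, were detected on no array by their brightest probe. Vtn, which encodes the integrin ligand vitronectin, was detected on 1 array. Just outside the limit Lama2, Lama4, Itga1, Itga4, Itga11 and Itgb3 were detected on 2 arrays by their brightest probe. Just inside it Col4a5, Col6a3, Col11a1, Col12a1 and Col23a1 were detected on 3. In bulk RNA a lower level from fewer expressing cells and one from less RNA per cell cannot be told apart.

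**Figure D1:**
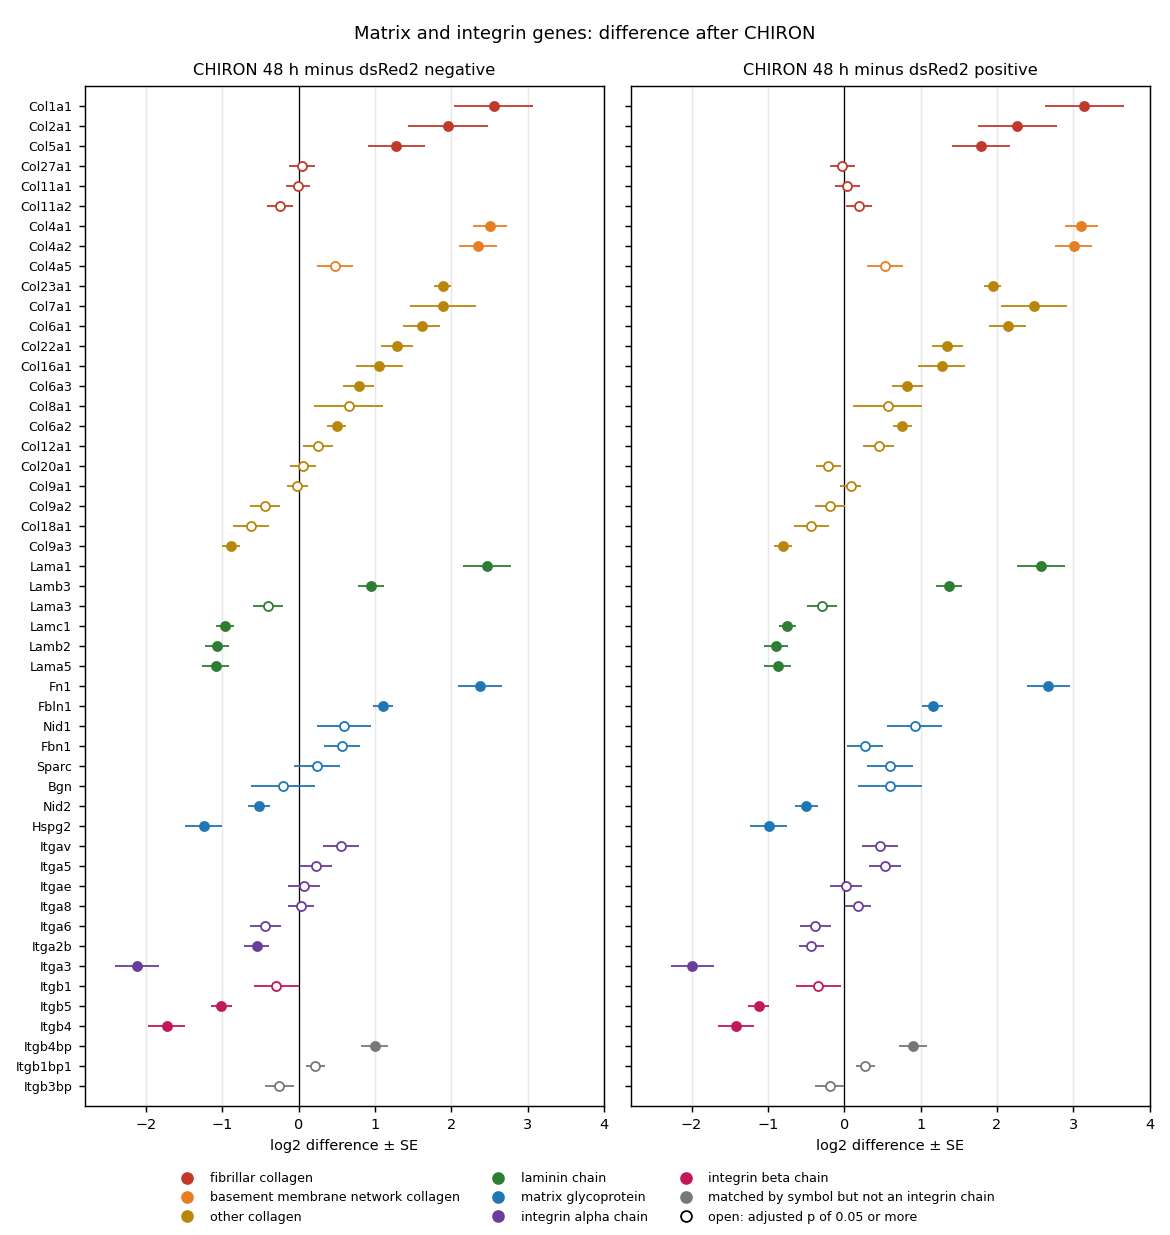
Log2 difference (x axis, ± standard error from limma, 3 arrays per group) of the matrix and integrin genes, CHIRON 48 h minus dsRed2 negative on the left and CHIRON 48 h minus dsRed2 positive on the right, with genes grouped and coloured by family and open points for an adjusted p of 0.05 or more. Collagens lie mostly right of 0, with Col1a1 at 2.55 and Col4a1 at 2.51 against negative cells, and no integrin chain has a filled point right of 0.

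Both chains of the commonest type IV collagen, encoded by Col4a1 and Col4a2, rose, with little spread among the treated replicates. Col4a1 stood at 9.82, 9.92 and 10.21 on the treated arrays, at 6.61, 7.28 and 6.73 on the dsRed2 positive arrays and at 7.11, 7.85 and 7.47 on the dsRed2 negative arrays. Every treated array lay above every sorted array. The difference was 2.51 ± 0.22 against negative cells (adjusted p = 1.68e-05) and 3.11 ± 0.22 against positive cells (adjusted p = 3.66e-06). Col4a2 stood at 9.10, 9.08 and 9.58 on the treated arrays, 5.97, 6.43 and 6.36 on the positive arrays and 6.53, 7.48 and 6.71 on the negative arrays. Again the treated arrays lay above all sorted arrays, by 2.35 ± 0.24 on average against negative cells (adjusted p = 4.96e-05) and 3.00 ± 0.24 against positive cells (adjusted p = 9.98e-06). Both chains kept their rise without treated replicate 3, at 2.39 for Col4a1 and 2.19 for Col4a2 against negative cells. The other chain tested, Col4a5, which belongs to a network found in kidney and other specialised membranes, was at 4.70, 4.77 and 5.66 on the treated arrays and undetected on all 6 sorted arrays. It was not called against negative cells (adjusted p = 0.136, and 0.455 without treated replicate 3). Col4a3, Col4a4 and Col4a6 were not tested.

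Col4a1 and Col4a2 lie head to head on chromosome 8 and are transcribed in opposite directions from starts that lie close together, so their start regions are shown because the pair rose together. Each window, from RefSeq on GRCm38.p6, runs from 250 bases before to 50 bases after the annotated start, 5′ to 3′ on the gene's own strand. Col4a1 is at chr8:11312777-11313076 on the minus strand and Col4a2 at chr8:11312555-11312854 on the plus strand. The 78 bases in capitals are those that the windows share, read from opposite strands.
Col4a1: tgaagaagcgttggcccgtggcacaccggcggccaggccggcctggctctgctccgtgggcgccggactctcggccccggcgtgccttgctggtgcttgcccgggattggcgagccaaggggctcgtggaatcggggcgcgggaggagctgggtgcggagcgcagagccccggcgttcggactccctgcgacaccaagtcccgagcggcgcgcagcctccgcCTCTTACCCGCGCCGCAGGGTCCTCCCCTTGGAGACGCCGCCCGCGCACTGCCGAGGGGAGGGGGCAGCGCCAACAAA
Col4a2: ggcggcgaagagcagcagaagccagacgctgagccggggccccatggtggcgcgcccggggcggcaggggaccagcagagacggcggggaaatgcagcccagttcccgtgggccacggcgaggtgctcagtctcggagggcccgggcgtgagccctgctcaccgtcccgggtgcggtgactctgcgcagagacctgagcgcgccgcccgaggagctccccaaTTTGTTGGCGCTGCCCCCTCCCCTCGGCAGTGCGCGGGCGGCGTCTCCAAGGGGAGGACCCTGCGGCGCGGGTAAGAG
The windows held 74.0% and 73.7% G and C for Col4a1 and Col4a2, where the median of all promoters in the same table was 52.7%. On either strand the Col4a1 window held 1 GC box (GGGCGG) and 1 CCAAT, and the Col4a2 window 3 GC boxes and 1 CCAAT. The GC box of Col4a1 and 1 of those of Col4a2 are the same site, in the shared bases. Neither window held a TATA box (TATAAA) or a TCF/LEF motif (CTTTGAT or CTTTGAA), the letters bound by the transcription factors that work with β-catenin. Of all 27025 genes with a promoter in the table, 38.2% held the GC box, 41.1% CCAAT, 15.7% TATAAA and 9.88% a TCF/LEF motif. Of the 36 tested matrix and integrin genes with an entry, 25 (69.4%) held the GC box, 10 (27.8%) CCAAT, 1 (2.78%) TATAAA and 5 (13.9%) a TCF/LEF motif. Among the 11 of these that rose against negative cells 1 held a TCF/LEF motif, and among the 6 that fell none did. Such matches describe the letters in a window and do not show binding.

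Laminins are built from an α, a β and a γ chain, and the α chains Lama1 and Lama5 moved in opposite directions. Lama1, the α chain of the laminin of early embryonic membranes, stood at 7.30, 7.44 and 7.97 on the treated arrays, 5.63, 4.74 and 4.61 on the positive arrays and 5.49, 5.31 and 4.50 on the negative arrays. It was detected on all treated arrays and on 2 arrays of each sort, and it rose by 2.47 ± 0.32 against negative cells (adjusted p = 0.000181) and by 2.58 ± 0.32 against positive cells (adjusted p = 0.000133). The sorted values lay near background, so the size of that rise is uncertain, and on the deposited values it was 1.22. Lama5, the α chain of the laminin that supports pluripotent cells in culture, stood at 8.05, 8.0 and 7.33 on the treated arrays, 8.75, 8.56 and 8.69 on the positive arrays and 8.98, 8.86 and 8.80 on the negative arrays. All treated arrays lay below all sorted arrays, and Lama5 fell by 1.09 ± 0.18 against negative cells (adjusted p = 0.000894) and by 0.87 ± 0.18 against positive cells (adjusted p = 0.0031). Treated replicate 3 differed from the mean of the other treated arrays by −0.70 for Lama5 and by 0.60 for Lama1.

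Of the 4 β and γ chains tested 2 fell and 1 rose. Lamb2, a β chain found in mature membranes, stood at 6.39, 6.67 and 6.42 on the treated arrays, 7.20, 7.38 and 7.58 on the positive arrays and 7.31, 7.81 and 7.57 on the negative arrays. It fell by 1.07 ± 0.16 against negative cells (adjusted p = 0.000446) and by 0.89 ± 0.16 against positive cells (adjusted p = 0.00131), with every treated array below every sorted array. Lamc1, the γ chain of most laminins, was at 8.74, 8.60 and 8.81 on the treated arrays, 9.46, 9.55 and 9.39 on the positive arrays and 9.77, 9.67 and 9.61 on the negative arrays. Its treated values were the tightest of the laminins that fell and all lay below the sorted arrays, with a fall of 0.96 ± 0.11 against negative cells (adjusted p = 0.000116) and of 0.75 ± 0.11 against positive cells (adjusted p = 0.000528). With centring on the array median the second of these missed the threshold (adjusted p = 0.0567). Lamb3, a chain of the laminin of epidermal anchoring structures, rose instead, by 0.95 ± 0.17 against negative cells and 1.37 ± 0.17 against positive cells. On the deposited values Lamb2 differed by −0.67 and Lamb3 by 0.39 against negative cells. Lama3, the α chain of the same laminin as Lamb3, was undetected on all treated arrays and not called against negative cells (adjusted p = 0.129). Lamb1, the usual β partner of Lama1 and Lamc1, was on the array under the older symbol Lamb1-1, outside the rule, with 1 probe that was detected on 0 of 9 arrays.

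**Figure D2:**
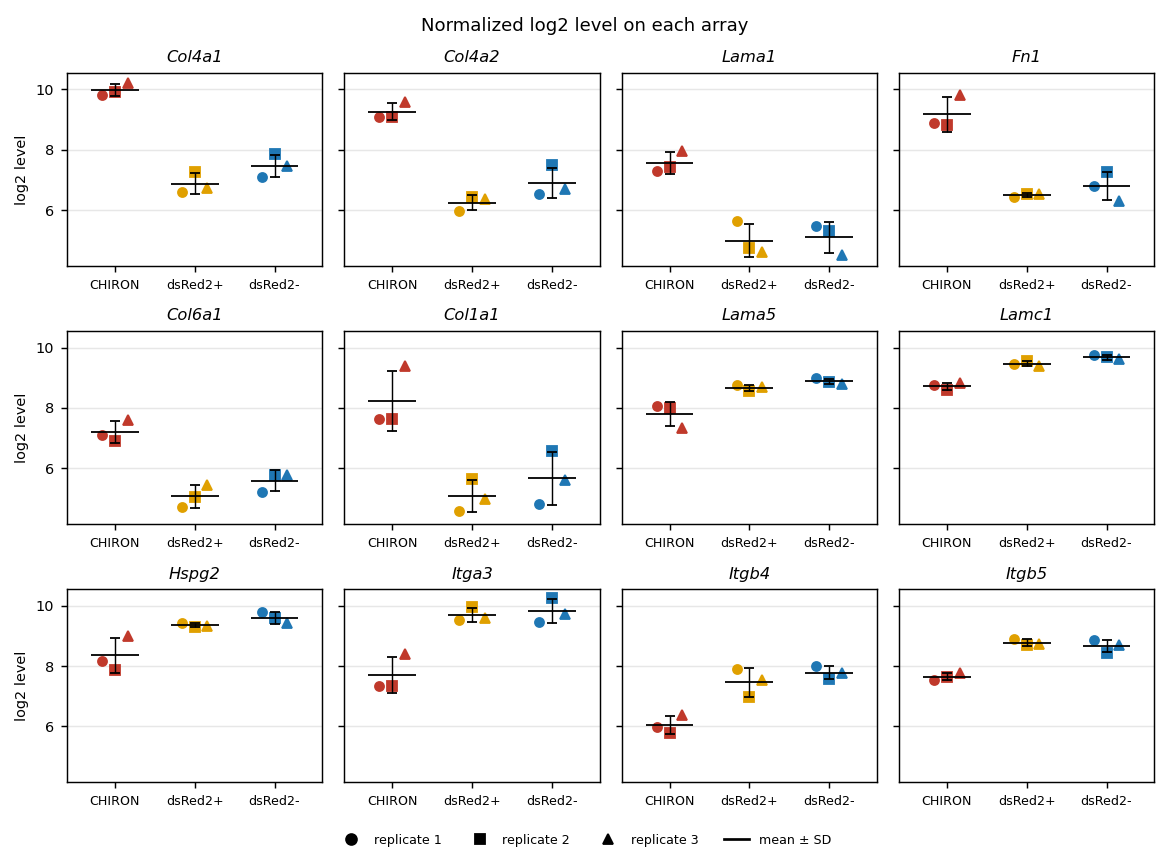
Level (y axis, log2 of normalized signal) of 12 matrix and integrin genes on each of the 9 arrays, with 3 points per group, the mean as a line and the SD as a bar, for CHIRON 48 h, dsRed2 positive and dsRed2 negative cells. Col4a1 on the treated arrays sits between 9.82 and 10.21, above every sorted array, and Itga3 on the treated arrays between 7.35 and 8.39, below every sorted array.

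Of the proteins that link the laminin and type IV collagen networks none was called higher by its brightest probe. Nid1, the nidogen of most basement membranes, stood at 5.80, 5.88 and 7.39 on the treated arrays, 5.32, 5.17 and 5.82 on the positive arrays and 5.80, 5.76 and 5.73 on the negative arrays. Treated replicates 1 and 2 lay close to the negative arrays and replicate 3 far above them, and the difference of 0.60 ± 0.35 was not called (adjusted p = 0.211). Without replicate 3 it was 0.08. Nid2, its homologue, stood at 9.23, 9.18 and 9.59 on the treated arrays, 9.93, 9.70 and 9.87 on the positive arrays and 10.05, 9.79 and 9.72 on the negative arrays. It fell by 0.52 ± 0.15 against negative cells (adjusted p = 0.0173) and by 0.50 ± 0.15 against positive cells (adjusted p = 0.0205), which is small but without overlap. The call against negative cells was lost without treated replicate 1 (adjusted p = 0.0634), treated replicate 2 (0.0673) or negative replicate 1 (0.0672), and the call against positive cells without treated replicate 1 (0.0725), treated replicate 2 (0.0775), positive replicate 1 (0.0701) or positive replicate 3 (0.0616). With median centring Nid2 differed by −0.30 against negative cells and −0.32 against positive cells, not called. Hspg2, which encodes perlecan, stood at 8.16, 7.88 and 9.01 on the treated arrays, 9.42, 9.29 and 9.32 on the positive arrays and 9.78, 9.59 and 9.41 on the negative arrays. By this probe it fell by 1.24 ± 0.24 against negative cells (adjusted p = 0.00226) and by 0.99 ± 0.24 against positive cells (adjusted p = 0.00764). Its probes disagreed: against negative cells a second probe differed by −1.19 but another by 1.09, and the mean over the probes differed by −0.45 (adjusted p = 0.0839), so the direction for perlecan depends on the probe. Col18a1, a basement membrane collagen that carries heparan sulphate, was not called (−0.62 ± 0.23, adjusted p = 0.0515). Without treated replicate 3 it differed by −0.95 (adjusted p = 0.000254).

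Fn1, fibronectin, the glycoprotein on which mesoderm cells migrate, was among the largest rises. It stood at 8.87, 8.81 and 9.83 on the treated arrays, 6.43, 6.54 and 6.54 on the positive arrays and 6.81, 7.26 and 6.32 on the negative arrays. All treated arrays lay at least 1 log2 unit above the sorted arrays, and the rise was 2.38 ± 0.28 against negative cells (adjusted p = 0.000115) and 2.67 ± 0.28 against positive cells (adjusted p = 5.31e-05). Its other passing probes showed smaller differences against negative cells, of 0.71 and 0.32, and the mean over its probes rose by 1.14. Fbln1, fibulin-1, which binds fibronectin, stood at 9.19, 9.15 and 9.58 on the treated arrays, 8.17, 8.15 and 8.12 on the positive arrays and 8.21, 8.13 and 8.27 on the negative arrays. The sorted values were almost level, and Fbln1 rose by 1.10 ± 0.13 against negative cells (adjusted p = 0.00013) and 1.16 ± 0.13 against positive cells (adjusted p = 9.04e-05), with its other probes at 0.69 and 0.77 against negative cells.

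Sparc and Bgn, like Nid1, were high on treated replicate 3 alone. Sparc, which encodes a collagen-binding protein abundant in parietal endoderm, stood at 11.11, 10.99 and 12.33 on the treated arrays, 10.63, 11.03 and 10.96 on the positive arrays and 11.10, 11.46 and 11.16 on the negative arrays. Bgn, the small proteoglycan biglycan, stood at 6.87, 6.87 and 8.70 on the treated arrays, 6.41, 7.06 and 7.17 on the positive arrays and 7.59, 7.90 and 7.54 on the negative arrays. In both, treated replicates 1 and 2 lay among or below the negative arrays and replicate 3 above every other array. Neither was called against negative cells, Sparc at 0.24 ± 0.30 (adjusted p = 0.569) and Bgn at −0.20 ± 0.42 (adjusted p = 0.743). Without replicate 3 Bgn differed by −0.81 (adjusted p = 0.0155) and Sparc differed by −0.19. Fbn1, fibrillin-1, the core of elastic microfibrils, differed by 0.57 ± 0.24 (adjusted p = 0.081), and by 0.30 without replicate 3.

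Fibril-forming collagens gave 3 rises among 6 genes tested. Col1a1, the main chain of type I collagen, stood at 7.65, 7.64 and 9.38 on the treated arrays, 4.60, 5.66 and 4.98 on the positive arrays and 4.81, 6.58 and 5.61 on the negative arrays. Its level differed widely among the sorted arrays too, and all treated arrays lay above them. The rise was 2.55 ± 0.52 against negative cells (adjusted p = 0.00297) and 3.14 ± 0.52 against positive cells (adjusted p = 0.000832). Against negative cells it was 1.98 without treated replicate 3. Col1a2, the other chain of type I collagen, and Col3a1, the fibril collagen of embryonic mesenchyme, were detected on no array by their brightest probe. Col2a1, the collagen of cartilage and of the notochord sheath, stood at 6.96, 7.31 and 9.27 on the treated arrays, 5.02, 5.65 and 6.07 on the positive arrays and 5.30, 6.12 and 6.24 on the negative arrays. Treated replicate 3 was 2.13 above the mean of the other treated arrays, the largest such gap among the 51 genes, and the rise was 1.95 ± 0.52 against negative cells (adjusted p = 0.0126) and 2.27 ± 0.52 against positive cells (adjusted p = 0.0057). Col5a1, a chain of the type V collagen that starts fibril assembly, stood at 9.30, 9.37 and 10.60 on the treated arrays, 7.47, 8.29 and 8.14 on the positive arrays and 7.95, 9.07 and 8.41 on the negative arrays. It rose by 1.28 ± 0.38 against negative cells (adjusted p = 0.0197) and 1.79 ± 0.38 against positive cells (adjusted p = 0.00335). The call of Col5a1 against negative cells was lost without treated replicate 3, at 0.86 (adjusted p = 0.0552), without negative replicate 1, at 1.02 (adjusted p = 0.0781), or without negative replicate 3, at 1.25 (adjusted p = 0.0567). That of Col2a1 was lost without negative replicate 1, at 1.66 (adjusted p = 0.0522), and without treated replicate 3 the difference was 1.24 (adjusted p = 0.0148). On the deposited values Col1a1 rose by 1.52 and Col2a1 by 1.20 against negative cells. Col11a1, Col11a2 and Col27a1 were near background, with differences of −0.01, −0.24 and 0.04 against negative cells.

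Of the 14 other collagens tested 7 rose and 1 fell in each comparison. Col7a1, the anchoring fibril collagen of skin, stood at 8.11, 8.23 and 9.65 on the treated arrays, 5.70, 6.54 and 6.29 on the positive arrays and 6.01, 7.40 and 6.92 on the negative arrays. It rose by 1.89 ± 0.43 against negative cells (adjusted p = 0.00583) and by 2.49 ± 0.43 against positive cells (adjusted p = 0.00116), and its treated arrays lay above all sorted arrays. Col6a1, a chain of the beaded filament collagen around cells, stood at 7.12, 6.90 and 7.61 on the treated arrays, 4.72, 5.04 and 5.45 on the positive arrays and 5.20, 5.79 and 5.79 on the negative arrays. It rose by 1.62 ± 0.24 against negative cells (adjusted p = 0.000462) and by 2.14 ± 0.24 against positive cells (adjusted p = 7.97e-05), again without overlap. Its partner chains rose too. Col6a2, the neighbour of Col6a1 on chromosome 10, detected on 1 of 6 sorted arrays, rose by 0.50 ± 0.12 against negative cells. Col6a3, undetected on every sorted array, rose at least 1.37-fold on the scale used here (adjusted p = 0.0104). The fitted difference of Col6a3 was 0.79, and 0.52 without treated replicate 3. Without that array Col7a1 rose by 1.39. On the deposited values the differences against negative cells were 0.82 for Col6a1, 0.14 for Col6a2 and 0.25 for Col6a3.

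Col23a1, a transmembrane collagen, was at 6.16, 6.25 and 6.20 on the treated arrays and undetected on all 6 sorted arrays, where it read 4.22, 4.26 and 4.30 in positive cells and 4.22, 4.28 and 4.45 in negative cells. Its treated values were nearly level. By this probe and on the scale used here it rose at least 2.81-fold against negative cells (adjusted p = 1.03e-06). Against positive cells it rose at least 2.79-fold (adjusted p = 8.09e-07). Its second probe gave a smaller log2 difference, of 0.62 against negative cells. Col22a1, a collagen of tissue junctions, stood at 5.45, 5.89 and 6.30 on the treated arrays, 4.74, 4.46 and 4.39 on the positive arrays, where it was undetected, and 4.40, 4.83 and 4.54 on the negative arrays. It rose by 1.29 ± 0.21 against negative cells (adjusted p = 0.000725). Against positive cells it rose at least 2.23-fold on the scale used here (adjusted p = 0.000533), where the deposited values gave a log2 difference of 0.46. Col16a1, a fibril-associated collagen, rose by 1.06 ± 0.31 against negative cells (adjusted p = 0.0184), a call lost without treated replicate 2 (0.99, adjusted p = 0.0566); without negative replicate 1 the difference of Col16a1 was 0.64. Col9a3, a chain of the fibril-associated collagen of cartilage, fell: it stood at 6.70, 6.63 and 6.62 on the treated arrays, 7.46, 7.60 and 7.31 on the positive arrays and 7.64, 7.46 and 7.50 on the negative arrays. The fall was 0.88 ± 0.12 against negative cells (adjusted p = 0.000233) and 0.81 ± 0.12 against positive cells (adjusted p = 0.000392). Col9a1 and Col9a2, the other chains of the same trimer, were not called, at −0.02 and −0.44 against negative cells. Without treated replicate 3 Col9a2 differed by −0.64 (adjusted p = 0.0151). On the deposited values Col23a1 rose by 0.68, Col22a1 by 0.44 and Col16a1 by 0.47, and Col9a3 differed by −0.57. Col8a1, a collagen of vessel and corneal membranes, read 5.16, 5.09 and 7.10 on the treated arrays and was not called (0.66 ± 0.45 against negative cells, and −0.0032 without treated replicate 3). Col12a1 and Col20a1 were not called either, at 0.26 and 0.06, and Col12a1 differed by 0.0063 without treated replicate 3.

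Among the integrin chains Itga3 and Itgb4, both parts of laminin receptors, had the largest falls, while Itga6 and Itgb1, which also serve laminin receptors, were not called. Itga3, the α chain of the laminin receptor α3β1, stood at 7.35, 7.35 and 8.39 on the treated arrays, 9.53, 9.95 and 9.57 on the positive arrays and 9.47, 10.25 and 9.71 on the negative arrays. All treated arrays lay more than 1 log2 unit below every sorted array, and Itga3 fell by 2.11 ± 0.29 against negative cells (adjusted p = 0.000252) and by 1.99 ± 0.29 against positive cells (adjusted p = 0.000356). Itgb4, which pairs only with α6 and anchors hemidesmosomes to laminin, stood at 5.97, 5.79 and 6.39 on the treated arrays, 7.90, 6.96 and 7.54 on the positive arrays and 8.01, 7.56 and 7.76 on the negative arrays. It fell by 1.73 ± 0.24 against negative cells (adjusted p = 0.000281) and by 1.42 ± 0.24 against positive cells (adjusted p = 0.000914), and its second probe differed by −1.57 against negative cells. On the deposited values Itgb4 differed by −1.03 against negative cells. Its partner Itga6 stood at 5.39, 5.14 and 6.05 on the treated arrays, 5.82, 5.94 and 5.96 on the positive arrays and 5.91, 5.92 and 6.05 on the negative arrays. Treated replicates 1 and 2 lay below all sorted arrays and replicate 3 did not, and the difference of −0.43 ± 0.20 was not called (adjusted p = 0.108). Without replicate 3 it was −0.70 (adjusted p = 0.00223).

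The receptors for fibronectin and vitronectin gave 1 fall. Itgb5, which pairs with αv to bind vitronectin, stood at 7.53, 7.64 and 7.78 on the treated arrays, 8.89, 8.69 and 8.73 on the positive arrays and 8.85, 8.44 and 8.70 on the negative arrays. It fell by 1.01 ± 0.14 against negative cells (adjusted p = 0.000265) and by 1.12 ± 0.14 against positive cells (adjusted p = 0.000135), with all treated arrays below the sorted arrays. Itgav, the αv chain, stood at 5.19, 5.14 and 6.14 on the treated arrays, 5.07, 4.80 and 5.20 on the positive arrays and 4.82, 4.94 and 5.05 on the negative arrays. Its values were low in every group, and the difference of 0.55 ± 0.24 was not called (adjusted p = 0.0886); a second probe differed by −0.16, and the first by 0.23 without treated replicate 3. Itga5, the α chain of the main fibronectin receptor, stood at 7.80, 8.01 and 8.48 on the treated arrays, 7.28, 7.50 and 7.92 on the positive arrays and 7.69, 8.04 and 7.88 on the negative arrays. The groups overlapped, and the differences of 0.23 ± 0.21 against negative cells (adjusted p = 0.417) and 0.53 ± 0.21 against positive cells (adjusted p = 0.0597) were not called.

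Itgb1, the β chain shared by most matrix-binding integrins, stood at 5.96, 5.94 and 7.23 on the treated arrays, 6.70, 6.88 and 6.57 on the positive arrays and 6.86, 6.65 and 6.50 on the negative arrays. Treated replicate 3 was the highest of the 9 arrays and replicates 1 and 2 the lowest, and the difference of −0.29 ± 0.29 was not called (adjusted p = 0.464). Without replicate 3 it was −0.72 (adjusted p = 0.0037). A second Itgb1 probe differed by −0.16 over all arrays. Itga2b, the α chain of the platelet fibrinogen receptor, was undetected on the treated arrays and fell at least 1.29-fold against negative cells (adjusted p = 0.0204), a call lost without treated replicate 1 (adjusted p = 0.0536), negative replicate 2 (0.0534) or negative replicate 3 (0.0743). It was not called against positive cells (adjusted p = 0.0545), and its fitted difference against negative cells was −0.15 on the deposited values. Itga8 and Itgae, chains of a kidney integrin and of a T cell integrin, differed by 0.03 and 0.08 against negative cells. The 3 genes that are not integrin chains were Itgb4bp, which rose by 0.99 ± 0.18 (0.37 on the deposited values), and Itgb1bp1 and Itgb3bp, which were not called.

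**Figure D3:**
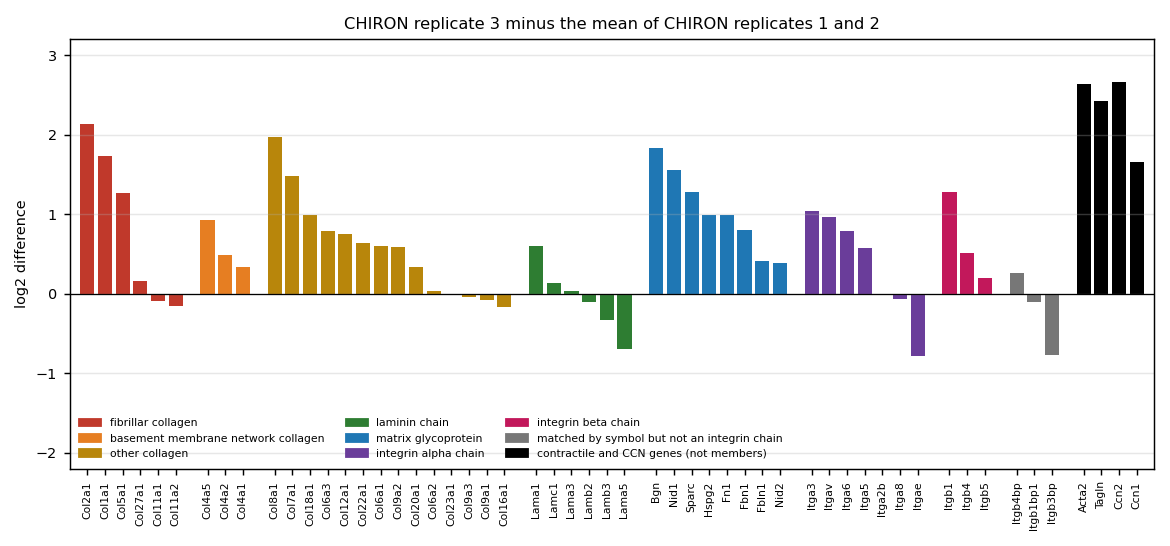
Level on treated replicate 3 minus the mean of treated replicates 1 and 2 (y axis, log2), 1 bar per gene on the x axis, for the matrix and integrin genes by family and, in black, for 4 contractile and CCN genes outside the rule. Most bars of these genes point up, to 2.13 for Col2a1, and that of Lama5 points down to −0.70.

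Treated replicate 3 was the highest of the 3 treated arrays in 35 of the 51 genes (68.6%), where it was in 4673 of 13205 genes (35.4%). It was at least 1 log2 unit above the mean of replicates 1 and 2 in 10 of the 51 (19.6%), against 336 of all genes (2.54%), with a median gap of 0.51 against −0.04. All 8 matrix glycoproteins, all 3 type IV collagens and all 3 integrin β chains were highest on it, while 3 of 7 laminin chains were. The gaps were 2.13 for Col2a1, 1.98 for Col8a1, 1.83 for Bgn, 1.73 for Col1a1, 1.55 for Nid1 and 1.48 for Col7a1. The gap was 0.34 for Col4a1 and −0.01 for Col23a1. Without this array 16 genes rose and 16 fell against negative cells, and the share of all genes called in that fit is not reported here. Among the falls that joined were those of Col9a2, Col18a1, Bgn, Itga6 and Itgb1, and the rise of Col5a1 was lost.

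Contractile genes and some other fibroblast markers were high on that array, and others were not. Acta2, smooth muscle actin, read 10.22, 10.24 and 12.86 on the treated arrays, 8.77, 9.05 and 9.03 on the positive arrays and 9.21, 10.61 and 9.76 on the negative arrays. Tagln, transgelin, read 5.61, 5.72 and 8.09 on the treated arrays, with replicate 3 again far above the others. Of the 7 fibroblast and feeder markers tested 5 were over 1 log2 unit higher on replicate 3 than on the mean of the other treated arrays. The exceptions were Thy1, a surface antigen of fibroblasts and other cells, with a gap of −0.09, and Pdgfra, a growth factor receptor of mesenchyme, with a gap of −0.18. Of 14 fibroblast and feeder markers outside the rule 7 were tested. Of these 2 rose and 1 fell against negative cells, where 20.1% of all genes rose and 19.9% fell. Against positive cells 3 rose and 1 fell, where 20.6% of all genes rose and 20.5% fell. The fall was that of Thy1, by 2.40 ± 0.26 against negative cells (adjusted p = 6.25e-05), and 1 of the rises was that of Pdgfra, tested only through the treated arrays. Their summed linear level ranged from 4794 to 15831 on the treated arrays, 2114 to 2935 on the positive arrays and 2527 to 4524 on the negative arrays, and 15831 was treated replicate 3. Acta2 and Vim, vimentin, made up 62.6% to 93.4% of the sum on each array. Lum, Postn, Fap, S100a4 and Cnn1 of that list were detected on no array, and Dcn on 1. The part of such cells in the matrix levels was not tested.

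Many endoderm and streak markers were called higher after CHIRON, but a large part of them were tested only through the treated arrays. Over all genes 20.1% rose and 19.9% fell against negative cells, and 20.6% and 20.5% against positive cells. Of 12 visceral and parietal endoderm markers tested of 17 listed, 9 rose against negative cells and 10 against positive cells, and 6 of the 12 were tested only through the treated arrays. These 6 were Gata6, Foxa1, Apoa1, Sox17, Foxa2 and Gata4. The other endoderm markers that rose against negative cells were Plat, Amn and Pth1r. Sox7, Hnf4a and Dab2 were not called against negative cells, at −0.0019, 0.21 and 0.52. The summed level of the 12 ranged from 3223 to 3355 on the treated arrays, 383 to 416 on the positive arrays and 427 to 446 on the negative arrays. Afp, Ttr, Cubn, Apob and Thbd were detected on no array. Of 12 primitive streak and mesoderm markers 11 rose in each comparison. Of these, Mixl1, Msx1 and Mesp1 were detected on no sorted array, and Eomes and Foxc1 on too few to pass the limit. All of those named were thus tested only through the treated arrays. The summed levels of the 12 were 9358 to 11803 on the treated arrays, 384 to 763 on the positive arrays and 346 to 489 on the negative arrays. Of 10 epiblast markers 7 fell and 2 rose against negative cells, and 6 fell and 2 rose against positive cells. Their summed levels were 8081 to 13821 on the treated arrays, 15191 to 18589 on the positive arrays and 14649 to 16026 on the negative arrays. Dnmt3b, with the highest signal of that list on every array, was not called (0.16 against negative cells). Of 10 endothelial and blood markers 2 were tested and 0 were called by limma in any comparison; their summed levels were 46 to 60 on the treated arrays, 46 to 48 on the positive arrays and 45 to 56 on the negative arrays, and Cdh5, Kdr, Emcn, Ptprc and Gata1 were detected on no array. Whether the matrix genes moved in the same cells as these markers was not tested.

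The machinery that makes, remodels and senses matrix was set beside the structural genes. Over all genes tested 20.1% were called higher and 19.9% lower against negative cells (median −0.01), and 20.6% and 20.5% against positive cells (median −0.02). Of 25 collagen folding and crosslinking enzymes 9 rose and 2 fell against negative cells (median 0.46), and 11 rose and 2 fell against positive cells. Crtap, part of the collagen prolyl 3-hydroxylation complex, read 9.11, 9.04 and 9.73 on the treated arrays, 7.38, 7.80 and 7.57 on the positive arrays and 7.85, 8.13 and 7.91 on the negative arrays, and rose by 1.33 ± 0.19 against negative cells (adjusted p = 0.00036). Ppib, the proline isomerase of the same complex, rose by 0.72 ± 0.13, and P4hb, the β subunit of prolyl 4-hydroxylase, by 0.77 ± 0.12. P4ha1, a catalytic subunit of prolyl 4-hydroxylase, fell by 0.96 ± 0.17 (adjusted p = 0.00115). P4ha2, another catalytic subunit, was not called (−0.25, adjusted p = 0.511). Of these subunits P4hb thus rose, P4ha1 fell and P4ha2 was not called.

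Of 27 matrix proteases and inhibitors 9 rose and 1 fell against negative cells (median 0.30), and 11 rose and 1 fell against positive cells. Plat, tissue plasminogen activator, read 8.0, 7.82 and 9.35 on the treated arrays, 4.76, 5.39 and 5.43 on the positive arrays and 5.14, 5.97 and 5.64 on the negative arrays, and rose by 2.81 ± 0.37 against negative cells (adjusted p = 0.00022). Timp2, a metalloprotease inhibitor, rose by 2.29 ± 0.33, and Ctsl, a lysosomal protease, by 1.36 ± 0.13. Mmp25, a membrane-bound metalloprotease, fell by 1.90 ± 0.17 (adjusted p = 2.05e-05).

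Of 24 matrix glycoproteins outside the rule 8 rose and 6 fell against negative cells (median −0.10), and 8 rose and 5 fell against positive cells. Fbln2, fibulin-2, a partner of fibronectin and nidogen, read 8.57, 8.71 and 9.38 on the treated arrays, 5.07, 5.12 and 5.05 on the positive arrays and 5.36, 5.38 and 5.55 on the negative arrays, and rose by 3.45 ± 0.19 against negative cells (adjusted p = 5.5e-07), more than any of the 51 genes. Smoc1, a basement membrane protein related to Sparc, was undetected on the negative arrays and rose at least 6.88-fold on the scale used here (adjusted p = 1.93e-05). Efemp2, fibulin-4, rose by 1.13 ± 0.15. Ltbp4, which holds latent TGF-β in the matrix, read 6.68, 6.48 and 6.47 on the treated arrays, 9.25, 9.10 and 8.98 on the positive arrays and 9.03, 9.11 and 8.95 on the negative arrays, and fell by 2.49 ± 0.12 (adjusted p = 2.71e-07).

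Of 17 cell surface proteoglycans and matrix receptors other than integrins 7 rose and 6 fell against negative cells (median −0.06), and 6 rose and 4 fell against positive cells. Bcam, a receptor for the laminin α5 chain, read 5.51, 6.07 and 5.54 on the treated arrays, 7.97, 7.71 and 7.78 on the positive arrays and 8.21, 8.09 and 7.66 on the negative arrays, and fell by 2.28 ± 0.19 against negative cells (adjusted p = 1.12e-05). Lama5, Itga3 and Itgb4 fell as well, while the laminin receptor chains Itga6 and Itgb1 were not called. Sdc4, a syndecan of focal adhesions, fell by 1.16 ± 0.19, while Gpc3, a glypican, rose by 2.02 ± 0.21 and Cd47, a receptor for thrombospondin, by 1.41 ± 0.31. Of 25 genes of the integrin adhesion complex 7 rose and 4 fell against negative cells (median −0.05), and 8 rose and 3 fell against positive cells, where 20.1% of all genes rose and 19.9% fell against negative cells and 20.6% and 20.5% against positive cells. Nedd9, a docking protein of focal adhesions, rose by 2.13 ± 0.31 and Tns3, a tensin, by 0.62 ± 0.12, whereas Actn4, an actin crosslinker, fell by 0.96 ± 0.18.

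**Figure D4:**
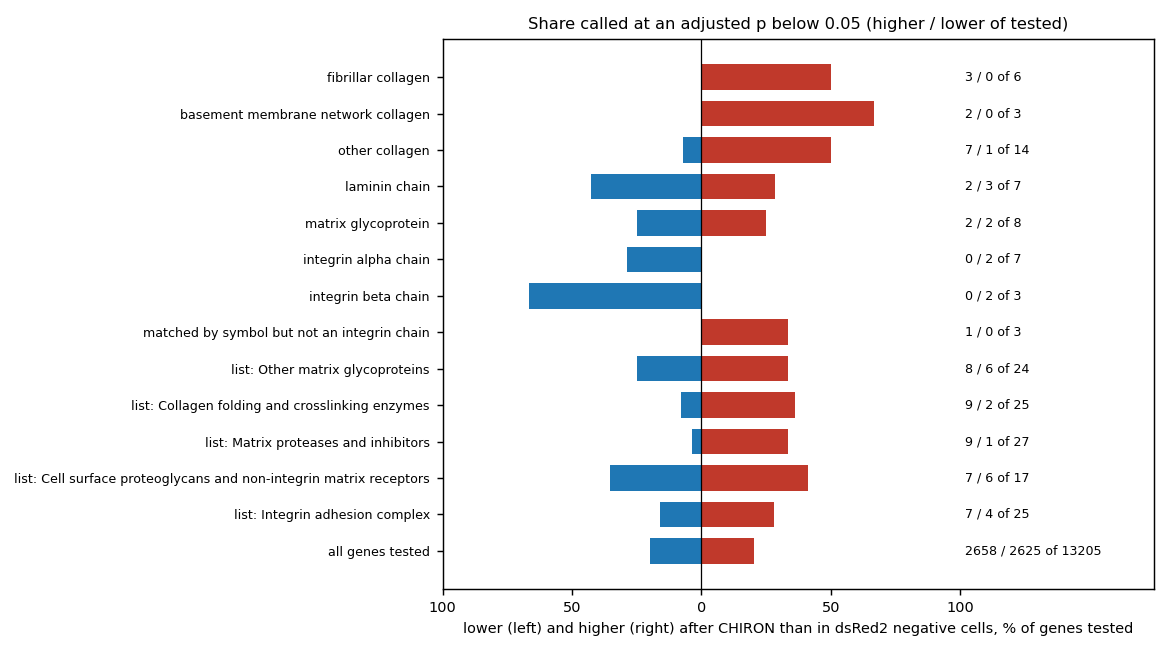
Share of genes tested (x axis, %) that were called higher after CHIRON (right, red) and lower (left, blue) than in dsRed2 negative cells, for each family of the 51 genes, for the lists beside them and for all 13205 genes, with the counts at the right. Type IV collagen had 2 of 3 genes higher and integrin β chains 2 of 3 lower.

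Between the sorted populations limma called none of the 51 genes, and 0 of 13205 over all (0%), with 368 genes (2.79%) at an unadjusted p below 0.05. The means nevertheless lay lower in dsRed2 positive cells for 42 of the 51, with a median difference of −0.14 where that of all genes was 0.01. The groups did not overlap for 8 genes, all lower in positive cells (Col4a2, Col6a2, Col11a2, Col18a1, Lama5, Lamc1, Bgn and Sparc), against 4.03% of all genes lower, 3.63% higher and 7.66% in either direction. Sorted arrays of the same number deviated together over all genes, so they were also compared in pairs. In the pairs 20 of the 51 genes were lower in positive cells in 3 of 3 (15.0% of all genes) and 3 were higher in 3 of 3 (15.5%). The 20 comprised 13 of 23 collagens, 3 of 7 laminin chains, 3 of 8 glycoproteins and 1 of 10 integrin chains.

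A paired fit of the 6 sorted arrays called none of the 51 genes and 3 of 13205 (0.0227%). At an unadjusted p below 0.05 it had 15 of the 51 lower (5.18% of all genes) and 1, Col20a1, higher (3.97%). The 8 with the smallest p were all lower in positive cells in every pair. For Col4a1 the differences were −0.49, −0.57 and −0.74 in pairs 1, 2 and 3 (adjusted p = 0.185). For its neighbour Col4a2 they were −0.55, −1.05 and −0.35 (adjusted p = 0.313). Both type IV chains, which rose after CHIRON, thus lay below negative cells in all 3 pairs of the sort, without passing the test. Bgn differed by −1.19, −0.85 and −0.37 (adjusted p = 0.251), Col7a1 by −0.30, −0.86 and −0.63 (adjusted p = 0.295) and Col6a1 by −0.48, −0.76 and −0.34 (adjusted p = 0.313). Lamb3, Col11a2 and Col5a1 had mean differences of −0.41, −0.43 and −0.51 (adjusted p = 0.325 for each). On the deposited normalized values the same paired fit called 2 of the 51, both lower in positive cells, Col4a1 at −0.39 (adjusted p = 0.0363) and Bgn at −0.52 (adjusted p = 0.0423), where 0.303% of all genes were called lower. In limma's paired fit 3 of the 7 fibroblast markers tested were lower in positive cells with an unadjusted p under 0.05. Acta2 differed by −0.91 (limma, unadjusted p = 0.00183), Vim by −0.27 (unadjusted p = 0.0347) and Twist2 by −0.35 (unadjusted p = 0.0185). Thy1, Pdgfra, Tagln and Loxl1 differed by −0.01, 0.05, −0.12 and −0.09, with unadjusted p of 0.313 or above. Their part in the matrix differences was not tested.

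The same fit had 2 of the 10 integrin chains lower in positive cells with an unadjusted p under 0.05 (5.18% of all genes), and called neither. These were Itgb4 at −0.31 (limma, unadjusted p = 0.0332) and Itga5 at −0.31 (unadjusted p = 0.0478). Itga3, the chain with the largest fall after CHIRON, differed by −0.12 between positive and negative cells, Itgb5 by 0.11 and Itgb1 by 0.05. Laminin chains all had lower means in positive cells, with Lama5 at −0.21 and Lamc1 at −0.22, while Lama1 differed by −0.11. Limma called none of these over the 9 arrays.

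**Figure D5:**
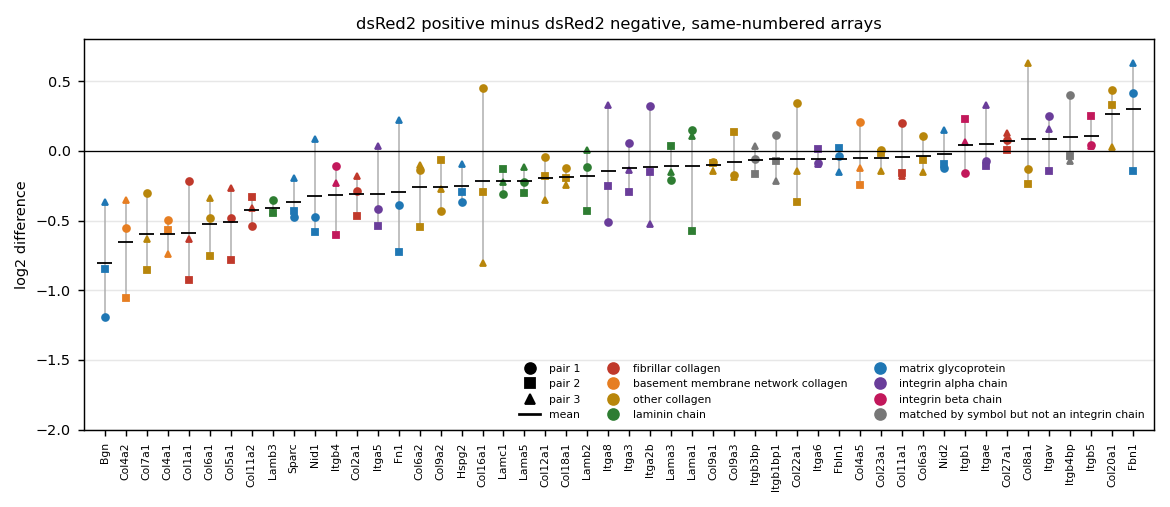
Log2 difference, dsRed2 positive minus dsRed2 negative, of the same replicate number (y axis, 3 points per gene, 1 per pair, with a dash for the mean) for the matrix and integrin genes, ordered by mean along the x axis. The points of Col4a1 lie at −0.49, −0.57 and −0.74 and those of Itgb5 at 0.04, 0.25 and 0.03.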

How the data were processed

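RNA of 9 samples was measured on Illumina bead arrays. Per the file headers, the deposited intensity of a probe is its average bead signal before normalization, linear in scale, and each comes with a deposited detection p-value. The authors also deposited normalized log2 values, which served as an alternative; the submitters' processing notes name lumi, in a version not given in the sources used here. Intensities of all 45281 probes were background-corrected by normexp from the detection p-values (offset 16), then quantile-normalized on the log2 scale with the neqc function of limma 3.58.1 in R 4.3.3. Probes detected (p-value below 0.05) on at least 3 of 9 arrays were kept, 19074 in all, and the brightest on average stood for a gene, giving 13205 genes. Symbols were updated through a RefSeq table: of 30869, 16219 were current, 5710 updated and 8940 kept.

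The test was limma's lmFit and eBayes over all 9 arrays with group as the term, two-sided, with Benjamini-Hochberg adjustment over all genes at 0.05. A gene undetected on every array of its dimmer group is given a lower bound on its fold difference. The bound is the mean of the brighter group over that of the dimmer one. In the dimmer group each array enters with its lowest detected signal or the probe's signal, whichever is higher. This bound holds only for the probe and normalization used, and other probes or the deposited values can give smaller differences. Summed marker levels are sums of normalized signals on the linear scale, so the brightest probes of a list weigh most in them. The test was checked on simulated data. Replicate numbers were taken to pair the sorted arrays, since deviations of same-numbered positive and negative arrays from their group means correlated across genes at 0.537, 0.584 and 0.35; treated and sorted arrays of 1 number correlated between −0.145 and 0.1 and were not paired.

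Values on every array are given for the 12 largest called rises and 8 largest called falls against negative cells and for a set of basement membrane, fibronectin and integrin genes; in the sort the 8 smallest paired p, and of each list up to 4 genes with the smallest p, are named. Some genes that were tested and counted are not reported here by name and are left out of the plots of single genes. The lists cover collagen enzymes, proteases, other glycoproteins, surface proteoglycans, the integrin adhesion complex, and markers of fibroblasts, endoderm, streak and mesoderm, epiblast, and endothelium and blood. The genes and lists were chosen with earlier results of these data known. The replicates are biological per the labels, which do not say whether they are separate cultures. Alternatives covered the filter, background correction, centring, deposited values, probe choice, array weights, pairing, and leaving out each array.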

Additional observations from a re-analysis of the deposited data

How the results depend on the processing

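No call changed direction under the alternatives run. The number of genes lower after CHIRON than in negative cells was 16 with array weights, against 10, and leaving out 1 array at a time gave 8 to 16 lower, the highest without treated replicate 3, and 15 to 18 higher. Against positive cells the ranges were 8 to 12 lower and 17 to 19 higher, and between the sorts 0 in every case. The shares of all genes called in these fits are not reported here, so the changes in number are not read as particular to these genes. With centring on array medians 68.8% of calls over all genes were higher against negative cells (50.3% otherwise) and 65.8% against positive cells (50.1%). The deposited values and those with no background correction gave smaller differences, with a median of 0.625 and 0.574 times the reported ones over 53 called differences; 29 and 30 of these became over 1.5 times smaller, down to 0.276 and 0.251 times. In the sort the pairing mattered: with the replicate block on the 6 sorted arrays 0 genes were called, and 2 lower with the deposited values. The replicate block over all 9 arrays gave 18 higher and 11 lower against negative cells and 0 in the sort, and removed no call named here. For that block, too, the share of all genes called is not reported here. With all probes kept, whatever their detection, Col2a1, Col5a1 and Col16a1 lost their calls against negative cells (adjusted p = 0.0597, 0.0789 and 0.0701), as did Col6a2 without background correction (0.0512). Averaging treated replicates 1 and 2 removed Nid2 (0.0641) and Itga2b (0.0507), and Itga2b was also lost without background correction (0.0586), with centring (0.0586) and with the deposited values (0.0626). The cause was not tested. For Col4a5, Col6a3, Col11a1, Col12a1, Col20a1 and Col27a1, with signals near background on most arrays, differences of small size could not be seen. Of these only Col6a3 was called.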
